A study of Mus musculus with 21 samples.

Results

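Lymphoid priming is the low-level use of lymphocyte genes by hematopoietic stem and progenitor cells before any lymphocyte has formed. Receptors such as Flt3 and the interleukin-7 receptor pass on growth signals, the Ikaros proteins and other DNA-binding factors open lymphoid genes, and the enzymes Dntt and Rag1 later assemble antigen receptor genes. The 10 genes examined here were picked by symbol for their known roles, by a rule that used no measured value but with earlier results of these data known: Flt3 and Il7r (receptors), Ikzf1 and Ikzf2 (Ikaros family), Dntt and Rag1 (recombination), Satb1 and Bcl11a (chromatin and early lymphoid factors), Tcf7 (T cell factor) and Ebf1 (B cell factor). They are 10 of the 27968 genes listed for sorted cells and of the 22899 listed for whole cocultures, although Dntt had no value in the coculture table.

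The study asked how close hematopoietic cells made from mouse pluripotent stem cells (PSCs) come to stem cells from mice. Hematopoietic-like colonies from a 3D self-assembling peptide culture of 129/ola PSCs were placed on mitomycin-treated OP9 cells, a mouse marrow stromal line (3D+OP9), or on 0.1% gelatin (3D+0.1% gelatin), and total cells were collected on day 5. From 3D+OP9 the LSK fraction (lineage-negative, Sca-1+, c-kit+) was sorted by CD201, the protein C receptor encoded by Procr, into D5-LSKCD201+ and D5-LSKCD201- cells. The undifferentiated cells were 129/ola mouse embryonic stem cells sorted for SSEA-1 (mESC), and the cells from animals were LSKCD201+ cells of C57BL/6 bone marrow (mice of 6 to 8 weeks, BM-LSKCD201+) and of C57BL/6 fetal liver (E12.5 embryos, FL-LSKCD201+). The coculture medium on OP9 held serum and the cytokines stem cell factor, IL-3 and Flt3 ligand, the last being the ligand of a gene examined here, and the animal groups had no such culture. No genotype change was given for any group. Every group had 3 libraries, so 15 libraries of sorted cells and 6 of whole cocultures were compared. These strains are those of the labels, while the study's methods also name embryonic stem cells of C57BL/6 origin without saying where they were used. By the labels, strain and origin cannot be told apart between the 129/ola culture groups and the C57BL/6 animal groups. Total cells of 3D+OP9 can include OP9 cells. The study's text calls the sorted libraries of a group biological replicates. It names independent experiments for the coculture data in general, but the labels do not tie the coculture libraries to separate cultures, so p-values there measure the spread between these libraries.

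Values are FPKM, fragment counts scaled by library size and transcript length, a scale on which genes of unequal length can be set side by side. Read depth is unknown. The 2 tables were normalized separately, so no test was made between them. Within groups, libraries correlated at 0.9868 to 0.9986 across genes. FL-LSKCD201+ replicate 1, D5-LSKCD201- replicate 2, BM-LSKCD201+ replicate 1 and 3D+OP9 replicate 3 stood furthest from their own groups, and the members' tests and the counts of called genes were also computed without each of them. The summed markers, gene list counts and correlations were not. Procr was 59.7 ± 2.03 FPKM in D5-LSKCD201+ cells and 3.48 ± 0.411 in D5-LSKCD201- cells (SD, n = 3), in the order the sort gives. The D5-LSKCD201+ libraries held little Ptprc, the pan-leukocyte phosphatase CD45 (0.409 ± 0.167 FPKM, against 66.8 ± 4.21 in BM-LSKCD201+ and 43.5 ± 7.54 in FL-LSKCD201+). Their summed endothelial markers (15 genes) reached 2504 to 2539 FPKM, against 528 to 606 in FL-LSKCD201+ and 419 to 459 in BM-LSKCD201+ cells. Summed erythroid markers (12 genes) were 17783 to 35892 FPKM in FL-LSKCD201+ libraries and at most 329 in the other sorted groups. In bulk RNA, fewer cells that use a gene and less RNA per cell cannot be told apart.

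The upstream sequences of the recombination genes are shown because their levels differed. Dntt was above 1 FPKM in BM-LSKCD201+ cells and in no other sorted group. Rag1, an enzyme of the same process, was near 0 in each group. Both sequences are the 200 bases just before the RefSeq transcription start (RefSeq, GRCm38.p6), written 5′ to 3′ on the gene's strand, in windows outside the annotated gene. Bases shortly after the start were found in a GENCODE transcript for Dntt but not for Rag1, so the Rag1 start rests on RefSeq alone. Capitals mark matches on either strand to 6 short motifs, namely AGGAAG (ETS), TGTGGT (RUNX), CAGGTG (E2A), CAGCTG (E-box), TGGGAA (Ikaros) and CCCNNGGG (EBF).
Dntt, chr19:41029075-41029274, plus strand: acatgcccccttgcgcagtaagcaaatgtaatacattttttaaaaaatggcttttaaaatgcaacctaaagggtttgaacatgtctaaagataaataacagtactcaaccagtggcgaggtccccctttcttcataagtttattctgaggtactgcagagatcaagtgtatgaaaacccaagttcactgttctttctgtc
Rag1, chr2:101649533-101649732, minus strand: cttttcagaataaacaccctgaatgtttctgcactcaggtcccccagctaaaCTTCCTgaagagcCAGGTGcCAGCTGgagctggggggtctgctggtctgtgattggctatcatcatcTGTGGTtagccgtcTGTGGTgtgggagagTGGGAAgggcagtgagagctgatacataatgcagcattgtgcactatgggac
The Dntt window held no match and had 38% G and C, and the Rag1 window held 6 matches and had 52.5%. The median was 53% over 32851 promoter windows. Those windows are listed as 250 bases before to 50 bases after the start. The median and the motif shares below were taken over the 200 bases before each start, as shown here. The matches before Rag1 were 1 each of ETS, E2A, E-box and Ikaros and 2 of RUNX, and CAGGTG and CAGCTG lay 1 base apart. Of all windows, 24.7% held the ETS motif, 17.3% Ikaros, 13.9% E2A, 11.2% RUNX, 10.9% E-box and 9.91% EBF. These are letter matches in one window and not binding sites.

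Flt3 is the receptor tyrosine kinase for Flt3 ligand (chromosome 5, 147330741 to 147400489, minus strand, GRCm38). It was expressed in the LSKCD201+ cells from mice and near 0 in every cultured group. Its levels were 254.8, 233 and 237 FPKM in the 3 BM-LSKCD201+ libraries and 49.8, 50.7 and 52.3 in the FL-LSKCD201+ libraries. They were 0.110, 0.217 and 0.152 FPKM in D5-LSKCD201+ cells, 0.289, 0.166 and 0.582 in D5-LSKCD201- cells and 0.197, 0.302 and 0.212 in mESC. Bone marrow and fetal liver did not overlap with each other or with any cultured group, whereas the D5-LSKCD201- values overlapped with those of mESC and of D5-LSKCD201+ cells. The closest neighbor of Flt3 in pattern was Hlf, a transcription factor of hematopoietic stem cells (Pearson r = 0.9990 on log2(FPKM + 1) over 15 libraries), followed by Hsh2d at 0.9986 and Wdfy4 at 0.9985. These correlations rest largely on the split between animal and cultured cells that the points share.

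Il7r, the interleukin-7 receptor alpha chain, was low everywhere. FL-LSKCD201+ libraries had 0.498, 0.700 and 0.605 FPKM, BM-LSKCD201+ libraries 0.126, 0.201 and 0.177, and D5-LSKCD201- libraries 0.0656, 0.0827 and 0.0455. D5-LSKCD201+ cells had 0.0173 FPKM in 1 library and were listed at 0 in the other two, as were all mESC libraries. The order fetal liver, bone marrow, D5-LSKCD201- held without overlap, but the gene lay below the filter of a mean of 0.5 FPKM in each comparison and was not tested.

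The partners of these receptors were not all low. Il2rg, the common gamma chain that pairs with Il7r, was 93.1 ± 0.722 FPKM in D5-LSKCD201+ cells, 103 ± 19.3 in FL-LSKCD201+, 205 ± 6.13 in BM-LSKCD201+ and 3.51 ± 0.470 in D5-LSKCD201- cells. Jak3, the kinase bound to that chain, was 68.1 ± 1.25, 32.2 ± 6.08, 86.2 ± 3.62 and 14.8 ± 4.22 FPKM in the same order, and Jak1, the kinase bound to Il7r, was 50.2 ± 0.642, 48.5 ± 7.04, 85.2 ± 9.33 and 18.0 ± 1.12. Of 14 receptor partners, ligands and signal genes, 12 could be tested between D5-LSKCD201+ and D5-LSKCD201- cells, and 7 were higher and none lower in D5-LSKCD201+ cells, beside 24.7% of all genes tested that were called in either direction. Against FL-LSKCD201+, 6 of 12 were higher and 4 lower, beside 34.7% of all genes, the latter being Flt3l (the Flt3 ligand), Crlf2 (the receptor chain that pairs with Il7r for thymic stromal lymphopoietin) and the signal transducers Stat5a and Stat5b. Against BM-LSKCD201+, 5 of 14 were higher and 5 lower, beside 44.7% of all genes, Il2rg joining those 4 genes. The genes higher in D5-LSKCD201+ cells in both comparisons included the Notch ligands Dll1, Dll4 and Jag1, the kit ligand Kitl and the chemokine Cxcl12. Of these, Dll1 and Kitl in both comparisons, Cxcl12 against fetal liver and Jag1 against marrow passed the filter through D5-LSKCD201+ cells alone and so had to be higher. Counts over a gene list, here and later, can hold such genes and are a description.

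**Figure D1:**
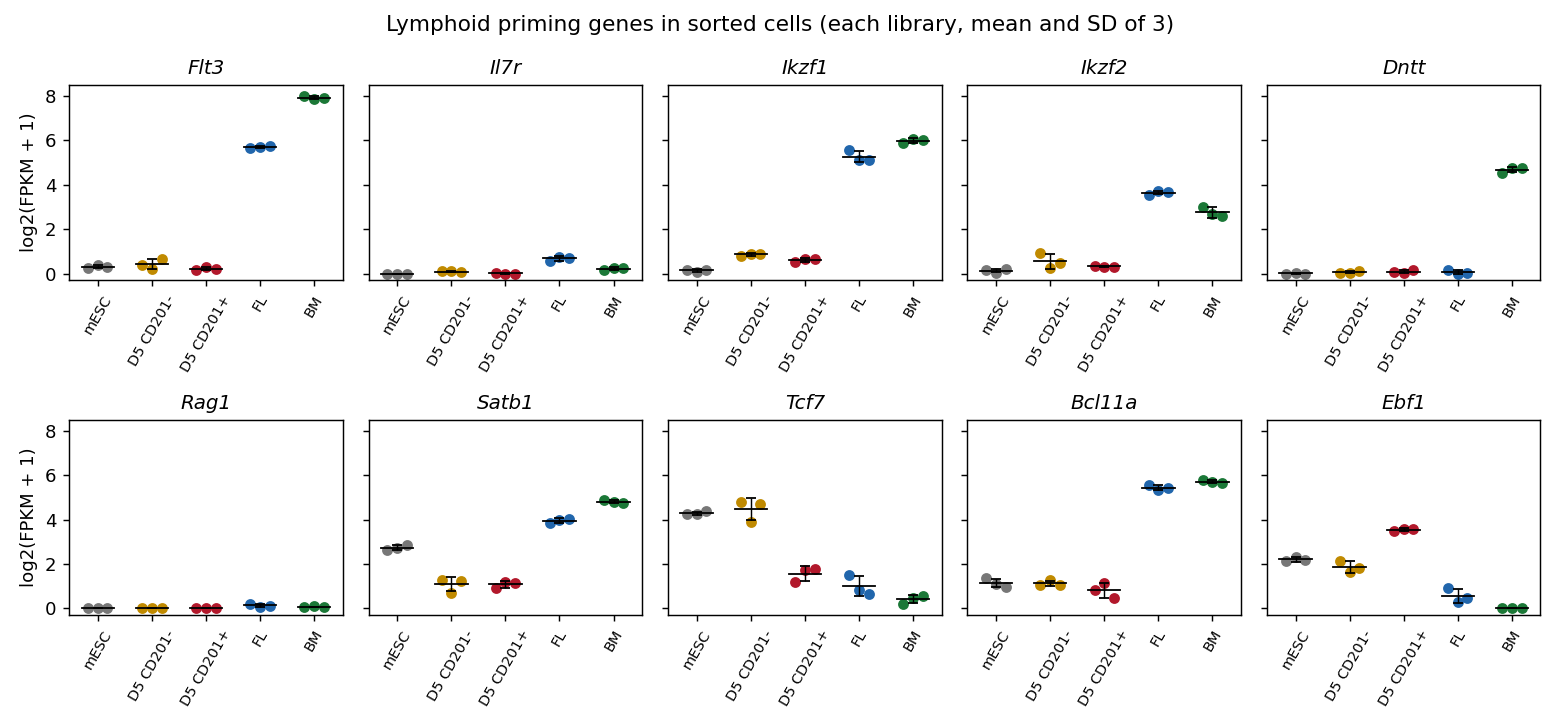
Level of each of the 10 lymphoid priming genes as log2(FPKM + 1) in the 15 sorted-cell libraries, 1 panel per gene on a common axis, points for libraries and lines for the mean ± SD of each group (n = 3). Flt3, Ikzf1, Ikzf2, Satb1 and Bcl11a stand high in BM-LSKCD201+ and FL-LSKCD201+ cells, Dntt in BM-LSKCD201+ alone, Tcf7 in mESC and D5-LSKCD201- and Ebf1 in D5-LSKCD201+ cells.

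Ikzf1 encodes Ikaros, a zinc finger factor required for lymphocyte development (chromosome 11, 11685003 to 11772926, plus strand). BM-LSKCD201+ libraries had 57.7, 65.8 and 64.1 FPKM and FL-LSKCD201+ libraries 46.8, 33.8 and 33.7, the first fetal liver library lying above the other two. D5-LSKCD201+ libraries had 0.425, 0.577 and 0.594 FPKM, D5-LSKCD201- libraries 0.744, 0.838 and 0.867, and mESC 0.133, 0.0564 and 0.126. No neighboring groups overlapped. The nearest genes in pattern were the leukocyte genes Ptprc (r = 0.9987), Vav1 (0.9984) and Rgs18 (0.9984), over the same 15 libraries.

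Ikzf2 encodes Helios, an Ikaros relative of stem cells and regulatory T cells. Unlike Ikzf1, it was higher in fetal liver than in marrow, at 10.8, 12.2 and 11.8 FPKM in FL-LSKCD201+ against 7.09, 5.39 and 4.95 in BM-LSKCD201+ libraries. D5-LSKCD201+ cells had 0.268, 0.244 and 0.230 FPKM and mESC 0.104, 0.0300 and 0.135. In D5-LSKCD201- cells, replicate 1 (0.914 FPKM) lay above replicates 2 and 3 (0.204 and 0.369), and this group overlapped with D5-LSKCD201+ cells. Among the other Ikaros relatives, Ikzf5 had 2.92 to 6.04 FPKM as group means, while the group means of Ikzf3 and Ikzf4 did not exceed 0.191 and 0.679 FPKM.

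Dntt, the terminal transferase that adds bases at antigen receptor joints (chromosome 19, 41029275 to 41059525, plus strand), was above 1 FPKM in the marrow libraries and in no other sorted library. Its levels were 22.2, 25.9 and 26.0 FPKM in BM-LSKCD201+ libraries. The highest value in any of the 12 other sorted libraries was 0.129 FPKM, in FL-LSKCD201+ replicate 1. Rag1, the recombinase subunit, did not go with it, since it had 0.0438, 0.0570 and 0.0453 FPKM in BM-LSKCD201+ libraries, which overlapped with the 0.160, 0.0522 and 0.0787 of FL-LSKCD201+. One D5-LSKCD201+ library had 0.00752 FPKM of Rag1, and all other D5 and mESC libraries were listed at 0. Rag2, the partner subunit, was 0.568 ± 0.131 FPKM in FL-LSKCD201+ cells, 0.410 ± 0.155 in BM-LSKCD201+ cells and listed at 0 in all D5-LSKCD201+ libraries. The locus given for Rag1 in the sorted table also spans Rag2 and B230118H07Rik.

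Satb1, a chromatin organizer of thymocytes and early lymphoid progenitors (chromosome 17, 51736187 to 51833290, minus strand), was 28.2, 26.4 and 26.0 FPKM in BM-LSKCD201+ libraries, while those of FL-LSKCD201+ had 13.1, 14.95 and 15.2. Unlike Flt3 it was also measured in mESC, at 5.18, 5.53 and 6.24 FPKM. D5-LSKCD201+ cells (0.867, 1.29 and 1.19 FPKM) and D5-LSKCD201- cells (1.44, 0.633 and 1.36) overlapped, and both lay below mESC. Bcl11a, a zinc finger factor needed for B lymphopoiesis (chromosome 11, 24078056 to 24174123, plus strand), was 53.3, 51.0 and 48.9 FPKM in BM-LSKCD201+ libraries, while those of FL-LSKCD201+ had 46.5, 39.4 and 41.8. Its values in mESC, D5-LSKCD201- and D5-LSKCD201+ cells ran from 0.388 to 1.53 FPKM, and neighbors in that order overlapped.

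Tcf7 and Ebf1 had another order. Tcf7, which encodes the Wnt and T cell factor TCF-1 (chromosome 11, 52252371 to 52283014, minus strand), was 26.9, 13.8 and 25.0 FPKM in D5-LSKCD201- cells and 17.8, 17.9 and 19.6 in mESC. It was 1.299, 2.35 and 2.37 FPKM in D5-LSKCD201+ cells, 1.84, 0.776 and 0.569 in FL-LSKCD201+ and 0.146, 0.372 and 0.472 in BM-LSKCD201+. The first 2 groups overlapped through D5-LSKCD201- replicate 2, the lowest of its group, and D5-LSKCD201+ overlapped with FL-LSKCD201+ through replicate 1 of each. The file's locus for Tcf7 spans 7 other protein-coding genes, so its level could hold reads of other genes. Lef1, the Tcf7 relative, had a like order among cultured cells, at 25.3 ± 7.82 FPKM in D5-LSKCD201-, 12.6 ± 1.38 in mESC and 7.41 ± 0.432 in D5-LSKCD201+ cells, against 0.505 ± 0.363 in BM-LSKCD201+ and 0.381 ± 0.431 in FL-LSKCD201+.

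Ebf1, the early B cell factor that also acts in adipocyte and stromal cells (chromosome 11, 44617317 to 45008091, plus strand), was highest in D5-LSKCD201+ cells, at 10.2, 11.04 and 10.7 FPKM. The values were 3.35, 4.03 and 3.47 FPKM in mESC, 3.43, 2.10 and 2.50 in D5-LSKCD201- and 0.884, 0.229 and 0.396 in FL-LSKCD201+ libraries. BM-LSKCD201+ had 0.0203 FPKM in replicate 1 and was listed at 0 in the other two. D5-LSKCD201+ overlapped with no group, and only mESC and D5-LSKCD201- overlapped. Its relatives Ebf2, Ebf3 and Ebf4 had group means of at most 0.315 FPKM. The genes nearest to Ebf1 in pattern were Rian, a noncoding RNA of an imprinted cluster (r = 0.9931), Tmem2 (0.9887) and Traf4 (0.9876).

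**Figure D2:**
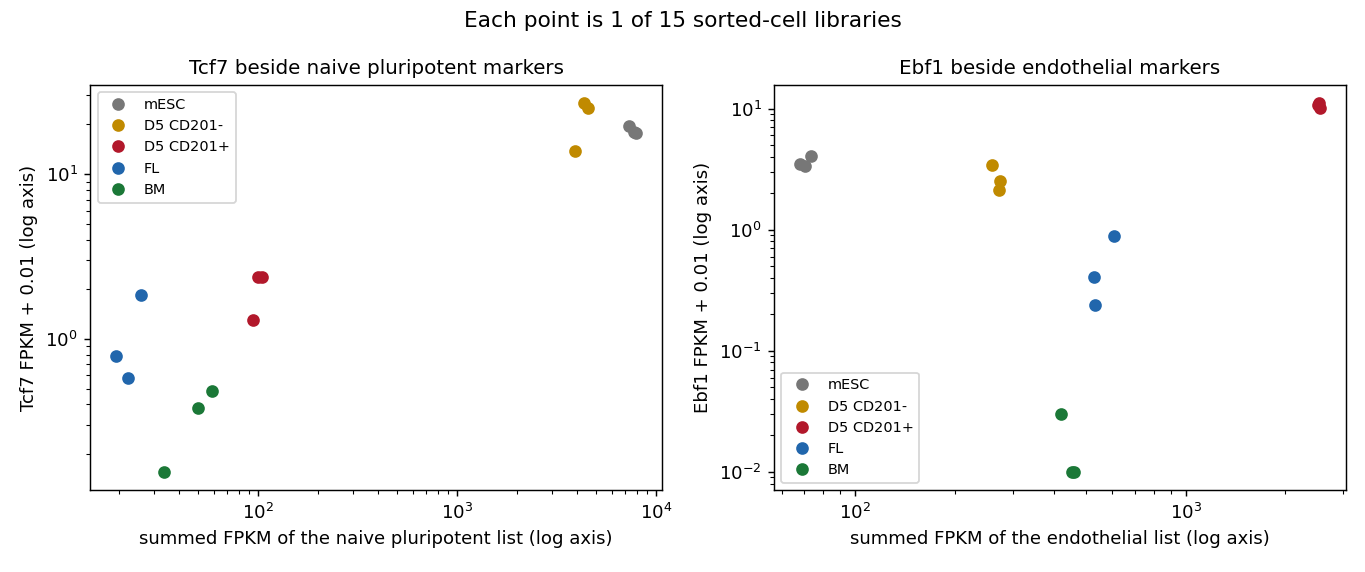
Tcf7 FPKM against the summed FPKM of naive pluripotency markers (left) and Ebf1 FPKM against that of endothelial markers (right) on log axes, 1 point per sorted-cell library, colored by group. Tcf7 is high in the mESC and D5-LSKCD201- libraries, where summed naive pluripotency markers are 3930 to 7893 FPKM, and Ebf1 is highest in D5-LSKCD201+ libraries, where summed endothelial markers are 2504 to 2539 FPKM.

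Against their own CD201- counterpart, D5-LSKCD201+ cells differed past both thresholds in Tcf7 and Ebf1. The difference in Tcf7 was -2.90 on the log2(FPKM + 1) scale (SE 0.27, limma adjusted p = 6.66e-05), with means of 2.01 ± 0.613 and 21.9 ± 7.09 FPKM. Ebf1 was higher by 1.68 (SE 0.14, adjusted p = 3.96e-05), with means of 10.6 ± 0.445 and 2.68 ± 0.686 FPKM, a ratio of 3.98. A gene was called at an adjusted p under 0.05 and a difference of at least 1. So 2 of the 5 members tested were called, beside 24.7% of all 13691 genes tested in this comparison (10.8% higher and 13.9% lower). For both the groups did not overlap, as for 73.6% of all genes tested. Without D5-LSKCD201- replicate 2, the differences were -3.19 for Tcf7 and 1.56 for Ebf1.

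The remaining members of this comparison did not reach the call. Ikzf1 differed by -0.25 (SE 0.08, adjusted p = 0.0338), its groups not overlapping, and missed the call by its size. Under quantile normalization it differed by 0.065. Bcl11a differed by -0.32 (SE 0.17, adjusted p = 0.135), by -0.48 without D5-LSKCD201+ replicate 2 (adjusted p = 0.0311) and by -0.15 without replicate 3 (adjusted p = 0.392). Satb1 gave means of 1.12 and 1.14 FPKM and an adjusted p of 0.994. Beside the difference in Tcf7, summed naive pluripotency markers (12 genes) were 94.5 to 104 FPKM in D5-LSKCD201+ and 3930 to 4529 in D5-LSKCD201- cells. Beside that in Ebf1, summed stromal and preadipocyte markers (20 genes) were 169 to 178 and 79.5 to 118 FPKM, and summed endothelial markers 2504 to 2539 and 259 to 274. Their part in either result was not tested.

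Of 72 other lymphoid genes, 39 could be tested, and D5-LSKCD201+ cells exceeded their CD201- counterpart in 19 and fell below it in 7, beside 10.8% and 13.9% of all genes, with a median of 0.92 against -0.12 over all genes. The 3 largest increases were in Il2rg (4.39, 93.1 against 3.51 FPKM), Cd53, a leukocyte tetraspanin (3.65, 22.4 against 0.893 FPKM), and Lyl1, a hematopoietic stem cell factor (3.34, 46.2 against 3.71 FPKM). The 3 largest decreases were in Eomes (-4.19, 1.07 against 36.7 FPKM), a T-box factor of mesoderm and killer cells, Lck (-1.71), the T cell kinase, and Lef1 (-1.59). Il2rg and Lyl1 are also used outside lymphocytes, and so is Eomes. The genes Il2rg, Jak1, Jak3, Stat5a and Stat5b are in this list and in that of the receptor partners, so counts over these lists overlap. Beside the count, 14 of 15 endothelial markers tested were higher in D5-LSKCD201+ cells (median 4.07), and their part in it was not tested.

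Relative to mESC, D5-LSKCD201+ cells had less Satb1 and Tcf7 and more Ebf1. The differences were -1.66 for Satb1 (SE 0.10, adjusted p = 4.36e-07), -2.71 for Tcf7 (SE 0.14, adjusted p = 1.25e-07) and 1.34 for Ebf1 (SE 0.08, adjusted p = 2.61e-07, a ratio of 2.94). These were 3 of the 4 members tested, beside 37.6% of all genes tested (19.5% higher and 18.1% lower), and for none of the 3 did the groups overlap, which held for 86.1% of all genes. Bcl11a differed by -0.33 (adjusted p = 0.0922), by -0.49 without D5-LSKCD201+ replicate 2 (adjusted p = 0.0151) and by -0.16 without replicate 3 (adjusted p = 0.32). D5-LSKCD201- cells shared the lower Satb1 with a difference from mESC of -1.65 (SE 0.17, adjusted p = 0.000179), the 1 call among 4 members tested, beside 14.3% of all genes (10.9% higher and 3.48% lower), and its groups did not overlap, as for 64.4% of all genes. Both comparisons use the same mESC libraries. In D5-LSKCD201- cells Tcf7 differed from mESC by 0.18 (adjusted p = 0.524), or by 0.47 without D5-LSKCD201- replicate 2 (adjusted p = 0.000266). Ebf1 differed by -0.34 (adjusted p = 0.0943) and Bcl11a by -0.01 (adjusted p = 0.95).

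Of the wider list, 42 genes were tested against mESC. In D5-LSKCD201+ cells 22 were higher and 5 lower, beside 19.5% and 18.1% of all genes (median 1.48, against -0.07 over all genes), led by Lyl1 (5.29), Il2rg (5.12) and Mef2c (4.52), a factor of lymphoid progenitors, muscle and endothelium. The largest decreases were in Socs2, a brake on cytokine signaling (-1.92), Lck (-1.31) and Vpreb3, a protein of pre-B cells (-1.21). Lyl1 and Vpreb3 passed the filter through 1 group alone and had to differ. Beside this list, all 15 endothelial markers (median 5.81) and 15 of 18 stromal and preadipocyte markers (median 1.93) were higher. Of 12 naive pluripotency markers, 11 were lower (median -6.20). Their part in the count of the wider list was not tested. In D5-LSKCD201- cells 12 of the 42 genes of the wider list were higher and 3 lower, beside 10.9% and 3.48% of all genes (median 0.41, against 0.05 over all genes). Eomes (4.04), Id3, an inhibitor of E proteins (3.59), and Lyl1 (1.94) were ahead. The genes that were lower were Cd79a, a B cell receptor chain (-1.34), Cd37 (-1.19) and Syk (-1.16). Here Lyl1 and Cd79a passed the filter through 1 group alone and had to differ.

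Against FL-LSKCD201+ cells, D5-LSKCD201+ cells had less of most members. Of the 7 members tested, 5 were lower and 1 higher, beside 34.7% of all 13627 genes called (15.1% higher and 19.6% lower). Flt3 and Ikzf2 passed the filter on low values through fetal liver alone, where they are high, so the count over the members tested is a description that carries no weight of its own. Flt3 differed by -5.49 (SE 0.08, adjusted p = 2.97e-08), Ikzf1 by -4.66 (SE 0.14, 3.5e-07) and Bcl11a by -4.64 (SE 0.17, 7.7e-07). Ikzf2 differed by -3.33 (SE 0.08, 1.58e-07) and Satb1 by -2.87 (SE 0.11, 1e-06). The groups overlapped for none of the 6 called members, beside 76.6% of all genes without overlap. As ratios of mean FPKM, D5-LSKCD201+ cells had 0.0140 of the Ikzf1, 0.0182 of the Bcl11a and 0.0773 of the Satb1 of FL-LSKCD201+ cells.

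Ebf1 went the other way, higher by 2.98 (SE 0.16, adjusted p = 4.78e-06). Its fetal liver mean of 0.503 FPKM lay just above the filter. Tcf7 differed by 0.57 (SE 0.26, adjusted p = 0.0845), and by 0.83 without FL-LSKCD201+ replicate 1, below the size asked of a call. Without that replicate the 6 called members had differences of -5.50 for Flt3, -4.51 for Ikzf1, -4.57 for Bcl11a, -3.38 for Ikzf2, -2.93 for Satb1 and 3.15 for Ebf1. The fetal liver values of Ebf1 left in that fit were 0.229 and 0.396 FPKM. There it passed the filter through D5-LSKCD201+ cells alone and had to be higher. A pseudocount of 0.1 in place of 1 moved Ikzf2 to -5.07.

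Against BM-LSKCD201+ cells, all 8 members tested were called, 6 lower and 2 higher, beside 44.7% of all 13775 genes tested (17.5% higher and 27.2% lower). Flt3, Ikzf2, Dntt, Tcf7 and Ebf1 passed the filter through 1 group alone and so had to differ, which leaves Ikzf1, Satb1 and Bcl11a as the members measured at 0.5 FPKM or more in both groups. Flt3 differed by -7.71 (SE 0.07, adjusted p = 7.38e-10), Ikzf1 by -5.37 (SE 0.08, 3.58e-09) and Bcl11a by -4.90 (SE 0.16, 8.7e-08). Dntt differed by -4.59 (SE 0.09, 1.04e-08), Satb1 by -3.72 (SE 0.10, 3.32e-08) and Ikzf2 by -2.44 (SE 0.13, 1.13e-06). Of the members measured in both groups, Ikzf1, Satb1 and Bcl11a were lower by amounts well above the spread of the libraries and did not overlap, beside 85.3% of all genes without overlap.

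Ebf1 was higher in D5-LSKCD201+ than in BM-LSKCD201+ cells by 3.53 (SE 0.08, adjusted p = 1.63e-08) and Tcf7 by 1.16 (SE 0.18, adjusted p = 0.000503). Without BM-LSKCD201+ replicate 1 the Tcf7 difference was 1.06. A pseudocount of 0.1 moved Ebf1 to 6.66, Dntt to -7.26, Ikzf2 to -4.07 and Tcf7 to 2.33, and the size of these differences between a measured and a near-absent level depends on that choice. The comparisons with fetal liver and with marrow share the D5-LSKCD201+ libraries. Summed pan-hematopoietic markers (15 genes) were 514 to 524 FPKM in D5-LSKCD201+, 2785 to 3131 in FL-LSKCD201+ and 3619 to 4002 in BM-LSKCD201+ cells, and the part of this difference in the members' values was not tested.

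**Figure D3:**
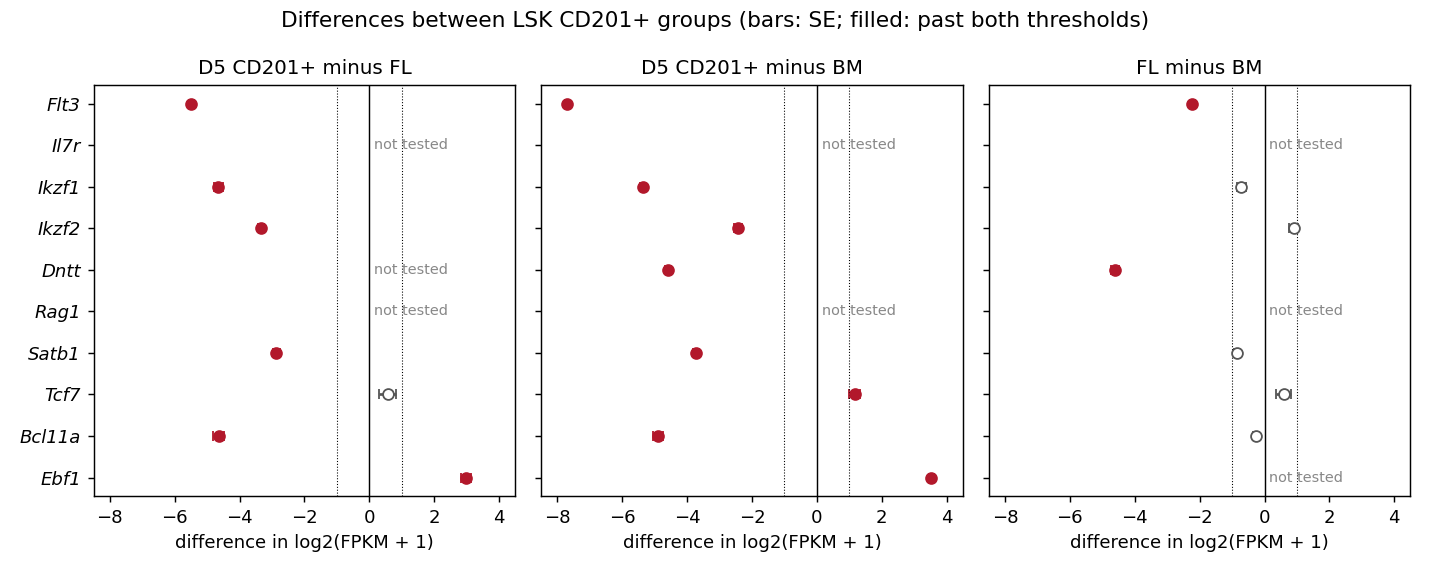
Differences of each tested member in log2(FPKM + 1) between LSKCD201+ groups, with points for the estimate (filled where called), bars for the SE and dotted lines at the size asked of a call. Flt3, Ikzf1, Ikzf2, Satb1 and Bcl11a lie below 0 for D5-LSKCD201+ against FL-LSKCD201+ and BM-LSKCD201+ cells, and Ebf1 lies above 0 in both.

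In the wider list, 51 genes were tested against FL-LSKCD201+ cells, of which 26 had less and 5 more RNA in D5-LSKCD201+ cells (median -1.09 against -0.16 over all genes), beside 19.6% and 15.1% of all genes. The 3 largest decreases were in Ltb, the lymphotoxin beta chain (-6.52, 1.29 against 210 FPKM), Cd27, a lymphocyte costimulatory receptor also found on progenitors (-5.53, 0.441 against 65.7 FPKM), and Cd52, a leukocyte surface glycoprotein (-4.91). The largest increases were in Lef1 (2.65), Id3 (2.55) and Notch1, the receptor that directs T cell fate (1.27). Against BM-LSKCD201+ cells, 32 of 50 were lower and 4 higher (median -1.59 against -0.23 over all genes), beside 27.2% and 17.5% of all genes, with Ltb (-7.81), Cd27 (-6.74) and Ighm, the immunoglobulin mu heavy chain (-6.64), lowest. Highest were Lef1 (2.51), Id3 (2.05) and Notch1 (1.11), the marrow mean of Lef1 (0.505 FPKM) lying just above the filter. Genes of the list such as Cd27 and Ighm passed the filter through the animal cells alone and so had to be lower, as Lef1 passed it against fetal liver through D5-LSKCD201+ cells alone and had to be higher. Tcf3, the E protein gene that acts upstream of Ebf1 in B cells, was 105 ± 2.44 FPKM in D5-LSKCD201+, 97.8 ± 13.2 in FL-LSKCD201+ and 94.9 ± 3.28 in BM-LSKCD201+ cells, and the first 2 groups overlapped. Pax5, the B cell commitment factor, was listed at 0 in all D5-LSKCD201+ libraries and had a mean of 0.244 FPKM in BM-LSKCD201+.

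The FL-LSKCD201+ and BM-LSKCD201+ cells differed in Flt3 and Dntt. FL-LSKCD201+ cells had 0.211 of the Flt3 of BM-LSKCD201+ cells (-2.22, SE 0.08, adjusted p = 2.41e-06), and Dntt differed by -4.61 (SE 0.12, adjusted p = 7.58e-07). These were 2 of 7 members tested, beside 19.1% of all 13503 genes (7.78% higher and 11.3% lower), and the groups overlapped for neither, beside 63.5% of all genes without overlap. Dntt passed the filter through marrow alone. Without FL-LSKCD201+ replicate 1 the differences were -2.21 and -4.66, and a pseudocount of 0.1 moved Dntt to -7.45. Ikzf1 (-0.71, adjusted p = 0.00419), Satb1 (-0.85, adjusted p = 0.000279) and Bcl11a (-0.26, adjusted p = 0.048) were lower in fetal liver by less than the size asked of a call.

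Ikzf2 was higher in fetal liver by 0.90 (SE 0.14, adjusted p = 0.00139), close to that size, and was called without BM-LSKCD201+ replicate 1 (1.03) and under quantile normalization (1.06). Tcf7 differed by 0.59 (adjusted p = 0.0674) and by up to 1.37 in the alternatives tried, none of which called it. It passed the filter through fetal liver alone, with means of 1.06 FPKM there and 0.330 in marrow. Beside these values, summed markers of mature B cells (11 genes) were 73.9 to 75.7 FPKM in FL-LSKCD201+ and 170 to 184 in BM-LSKCD201+, those of mature T cells (12 genes) 26.3 to 32.3 and 128 to 137, and those of plasmacytoid dendritic and NK cells (12 genes) 194 to 206 and 288 to 315. Other lists were higher in FL-LSKCD201+, with myeloid markers (11 genes) at 2261 to 2286 against 720 to 852 FPKM, hepatocyte markers (10 genes) at 537 to 755 against 94.4 to 102 and erythroid markers at 17783 to 35892 against 282 to 329. The genes nearest to Ikzf2 in pattern were the erythroid iron carrier gene Slc25a37 (r = 0.9916), the hematopoietic nuclear factor gene Hemgn (0.9915) and Rabl2 (0.9898). As for Flt3, these correlations rest largely on the split between animal and cultured cells, and few nearest genes held under other measures (below). The part of the marker genes above in the members' differences was not tested. Of 52 other lymphoid genes tested, 1 was higher and 14 were lower in FL-LSKCD201+, beside 7.78% and 11.3% of all genes (median -0.46 against -0.13 over all genes). The gene that was higher was Igll1, a surrogate light chain (1.02), and the lowest were Ighm (-2.75), Lat, a T cell adaptor (-2.57), and Runx3, a factor of killer T cells (-1.79).

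Across the 15 sorted libraries, Flt3, Ikzf1 and Bcl11a followed one another most closely, with Pearson r of 0.987 for Flt3 and Ikzf1, 0.989 for Ikzf1 and Bcl11a and 0.980 for Flt3 and Bcl11a. Dntt and Ikzf2 were less alike (0.441). Ebf1 ran against Flt3 (-0.892) and Bcl11a (-0.899), and Tcf7 and Ebf1 had an r of 0.449. These values describe 5 groups of 3 libraries and carry no test.

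In whole cocultures, OP9 cells were compared with gelatin as the surface beneath the colonies, and Ikzf1 alone among the members was called. Ikzf1 was 1.93, 2.25 and 2.29 FPKM in 3D+OP9 and 0.47, 0.75 and 0.48 in 3D+0.1% gelatin, without overlap. The difference was 1.01 (SE 0.13, adjusted p = 0.00519), a ratio of 3.81. It was 1 call among 5 members tested, beside 2.62% of all 12958 genes (2.11% higher and 0.509% lower). The size sat at the limit of a call, which was lost under quantile normalization (0.91) and without 3D+OP9 replicate 2 (0.99) or 3 (0.98) or 3D+0.1% gelatin replicate 1 (0.97) or 3 (0.97), while the adjusted p stayed between 0.00344 and 0.0277 in the alternatives tried. A pseudocount of 0.1 moved the difference to 1.78.

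Tcf7, the most abundant member in the cocultures, was 47.8, 45.3 and 47.6 FPKM in 3D+OP9 and 65.0, 59.2 and 54.7 in 3D+0.1% gelatin. The groups did not overlap, but the difference was -0.34 (SE 0.08, adjusted p = 0.0556). Satb1 was 9.14, 7.15 and 7.80 FPKM against 9.27, 10.7 and 8.98 (-0.24, adjusted p = 0.291), and these overlapped. Bcl11a was 3.59, 2.88 and 6.91 against 5.87, 9.06 and 6.68 FPKM (-0.64, adjusted p = 0.219), with 3D+OP9 replicate 3 inside the gelatin range. Without that replicate it differed by -0.94 (adjusted p = 0.0148). Ebf1 was 2.51, 2.58 and 3.17 against 1.72, 2.88 and 1.94 FPKM (0.25, adjusted p = 0.412), and overlapped.

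Flt3 (0.14 to 0.37 FPKM), Ikzf2 (0.15 to 0.87), Il7r (at most 0.03) and Rag1 (at most 0.02) were below the filter in the cocultures. Flt3 was 0.18, 0.14 and 0.16 FPKM on OP9 and 0.37, 0.28 and 0.23 on gelatin, and Ikzf2 was 0.50, 0.50 and 0.87 against 0.15, 0.34 and 0.32. Neither gene overlapped between the surfaces, beside 28.7% of the genes tested. Beside the Ikzf1 value, summed pan-hematopoietic markers were 41.9 to 53.7 FPKM on OP9 and 20.0 to 24.9 on gelatin, erythroid markers 267 to 823 and 49.8 to 62.2, endothelial markers 150 to 184 and 36.2 to 53.8, and stromal and preadipocyte markers 129 to 159 and 82.4 to 98.7. Ptprc was 0.0400 ± 0.0608 FPKM on OP9 and 0.00333 ± 0.00577 on gelatin. Their part in the Ikzf1 difference, and that of RNA from the OP9 cells themselves, was not tested.

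**Figure D4:**
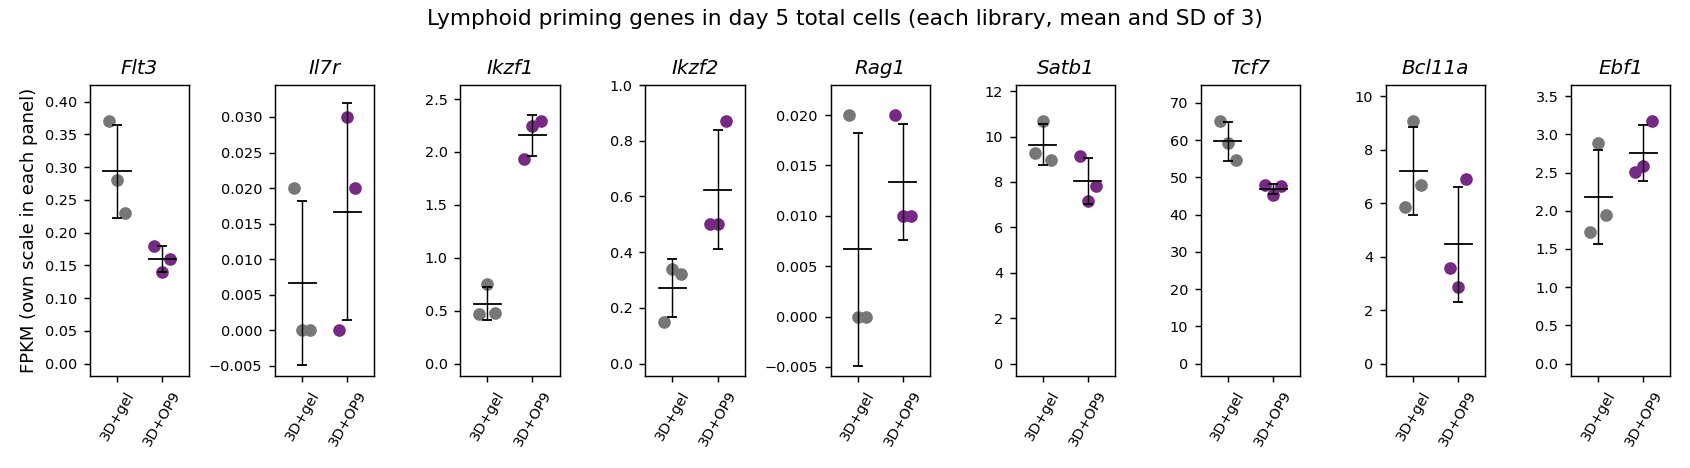
FPKM of the 9 members with values in the whole-coculture libraries, 1 panel per gene with its own linear axis, points for libraries and lines for the mean ± SD (n = 3). Ikzf1 lies at 1.93 to 2.29 FPKM in 3D+OP9 and 0.47 to 0.75 in 3D+0.1% gelatin, and Tcf7 is the most abundant member in both.

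Of the 72 other lymphoid genes, 45 were tested in the cocultures, and 7 were higher and 1 lower on OP9, beside 2.11% and 0.509% of all genes, with a median of 0.14 against 0.01 over all genes. The 3 largest increases were in Erg, a stem cell and endothelial factor (2.13, 4.12 against 0.163 FPKM), Jak3 (1.98, 16.4 against 3.37 FPKM) and Lyl1 (1.86, 5.27 against 0.747 FPKM), and the 1 decrease was in Ltb (-1.66, 2.03 against 8.43 FPKM). Erg passed the filter through 3D+OP9 alone and had to be higher. The other increases were in Mef2c, Lmo2, Spi1 and Hhex. Among markers of mature B cells, mature T cells and plasmacytoid dendritic and NK cells, 1, 4 and 4 were tested and none was called. Il2rg was 1.81 ± 0.135 FPKM on OP9 and 0.663 ± 0.145 on gelatin, without overlap and short of a call.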

How the data were processed

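Per the labels, TRIzol was used for RNA and the VAHTS mRNA-seq v2 kit for libraries, and strandedness is not given in the sources used here. The FPKM values were deposited by the authors as 2 gene tables, normalized separately. The submitters' processing notes name HISAT2 2.0.5, StringTie 1.3.3, Cuffdiff 1.3.0, GRCm38 and mm9, with no order. The coculture table lists 22899 genes, 3578 of them without a value. Depth is unknown, and FPKM keep no whole-read steps, so copies of one library could not be sought by counting noise. The table's own fold changes were not used.

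Each of 7 comparisons was fitted on all genes with limma 3.58.1 (R 4.3.3; trend) on log2(FPKM + 1), after a filter at a mean of 0.5 FPKM over the libraries compared, with Benjamini-Hochberg adjustment, and called at an adjusted p under 0.05 and an absolute difference of at least 1. Differences are on that scale and understate changes of low genes. With 3 libraries against 3, an exact permutation test of 1 gene cannot go below p = 0.1.

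The members and gene lists were chosen with earlier results of these data known. All members are named, and of the wider list up to 3 called genes with the largest difference in each direction. Receptor partners, relatives of the members, Rag2, Tcf3, Pax5 and Ptprc were named for their tie to a member, after their values were seen. Nearest genes are those with the highest Pearson r. FL-LSKCD201+ and BM-LSKCD201+ libraries of the same number deviated together (r = 0.242, 0.202 and 0.159), which by the rule used pairs them, although no source says so. Only 1 of the FL-LSKCD201+ libraries deviated most closely with the BM-LSKCD201+ library of its own number. Gene positions are from GENCODE M21 (GRCm38) and promoters from RefSeq (GRCm38.p6), where 9 of 10 members matched. Alternatives were another pseudocount, the replicate block, filters, a constant prior variance, quantile normalization, the adjusted p alone, 1 fit over all sorted groups, leaving out each library and, chosen after seeing the data, averaging the closest pair of libraries.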

Additional observations from a re-analysis of the deposited data

How the results depend on the processing

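Of 586 differences of members under the alternatives, 563 kept their direction and side of the threshold, and 22 of the 23 called ones did so in every alternative, Ikzf1 on OP9 being the exception. The counts of called members were 0 under quantile normalization and 0 to 1 over the fits that left out 1 library for OP9 against gelatin, and 6 by the adjusted p alone for FL-LSKCD201+ against BM-LSKCD201+. The count of all genes called on OP9 was 531 with a pseudocount of 0.1 and ran from 209 to 444 when a library was left out, against 339, the lowest being without 3D+0.1% gelatin replicate 2. By the adjusted p alone, with no minimum size, called genes numbered 891 on OP9, 9349 for D5-LSKCD201+ against D5-LSKCD201-, 11496 and 7418 for these groups against mESC, 9823 and 11486 for D5-LSKCD201+ against FL-LSKCD201+ and BM-LSKCD201+, and 7446 between the last 2 groups.

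Direction turned only for small differences. Between D5-LSKCD201+ and D5-LSKCD201- cells, Satb1 ran from -0.19 to 0.10 when a library was left out and became 0.025 with a pseudocount of 0.1, 0.28 under quantile normalization, 0.086 without D5-LSKCD201+ replicate 1, 0.10 and 0.078 without D5-LSKCD201- replicates 1 and 3 and 0.091 with the closest libraries averaged, an alternative chosen after seeing the data, and Ikzf1 became 0.065 under quantile normalization. Between D5-LSKCD201- cells and mESC, Bcl11a ran from -0.090 to 0.095 when a library was left out, with 0.095 without mESC replicate 1 and 0.032 and 0.017 without D5-LSKCD201- replicates 1 and 3 and became 0.025 with the closest libraries averaged. Of the 24 nearest genes in pattern, 1 was also nearest by Spearman's rho, 7 with a pseudocount of 0.1 and 3 over group means. The cause of these changes was not tested.

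Quantile normalization moved the median of all genes from -0.12 to -0.01 (D5-LSKCD201+ against D5-LSKCD201-), 0.05 to -0.10 (D5-LSKCD201- against mESC), -0.16 to -0.05 (against FL-LSKCD201+), -0.23 to -0.02 (against BM-LSKCD201+) and -0.13 to -0.02 (FL-LSKCD201+ against BM-LSKCD201+), and calls in D5-LSKCD201- against mESC from 1476 higher and 473 lower to 1104 and 741. It turned the more frequent direction of call in D5-LSKCD201+ cells against D5-LSKCD201- (1475 higher and 1904 lower to 1716 and 1599), mESC (2626 and 2430 to 2499 and 2611) and FL-LSKCD201+ (2054 and 2673 to 2314 and 2296), and narrowed it against BM-LSKCD201+ (2406 and 3753 to 2890 and 3007) and between FL-LSKCD201+ and BM-LSKCD201+ (1050 and 1531 to 1211 and 1245). With the replicate block, members called were 1 on OP9, 2, 3 and 1 among the cultured sorted groups, 6 and 8 against the animal groups and 2 between those, with 379 genes called on OP9 and 2607 between FL-LSKCD201+ and BM-LSKCD201+, and the block changed no member's call. Outside the latter comparison, same-numbered libraries did not all deviate together (on OP9, r = 0.182, 0.072 and 0.291). Unknown depth limits what can be read from members near 0.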
